A study of Neurospora crassa with 24 samples.

Results

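The comparison described here sets opposite parts of an 11 h cycle against each other in the *msn-1* knockout of *Neurospora crassa* (ΔMSN1). Cultures harvested at 2, 4, 14 and 16 h of darkness, which lie at 2 to 5 h of an 11 h cycle, form the early phase. Cultures harvested at 8, 10, 18 and 20 h, which lie at 7 to 10 h of that cycle, form the late phase. These 8 libraries, of 24 in the series, were picked by harvest time, with 4 cultures a side. The phases were chosen with earlier results of these data known. Of 9730 genes in the table, 7315 had a mean of at least 2 CPM (counts scaled to a common library size) over the 8 libraries and were tested. At that minimum the closest genes inside were NCU00093 (2.0003 CPM, log2 difference 0.25) and NCU00846 (2.0006 CPM, 0.62), and the closest outside was *mus-42* (1.9979 CPM).

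The study followed gene expression over 1 day in darkness, with 1 liquid culture for each strain and time, from 0 to 22 h in steps of 2 h, in a wild type (WT) and in ΔMSN1, where *msn-1* (NCU02671) is deleted. All cultures grew in Vogel's minimal medium with 2% glucose, spent 2 days in cycles of 11 h of light and 11 h of dark, and were then kept dark. They were moved to darkness at staggered times, so that the harvest of all of them took 10 h, and poly(A) RNA was sequenced. Each genotype is represented by 1 strain, so strain background and deletion cannot be told apart. A sequencing lane is named for the ΔMSN1 libraries only, so strain and lane cannot be told apart either. The labels name no shared origin of cultures, and the 4 cultures of a side lie in both 11 h cycles of darkness, so their spread holds those differences as well as that between cultures.

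MSN-1 is a zinc finger transcription factor related to the general stress regulators Msn2 and Msn4 of budding yeast. The clock of *Neurospora* runs on a loop in which FRQ, with its partner FRH, inhibits the white collar complex that drives *frq*. A harmonic of the clock is a rhythm that completes several whole cycles in each circadian cycle. With the study's circadian period of 22 h the second harmonic has a period of 11 h and the third harmonic a shorter one. At these 8 times the late minus early difference keeps 79.9% of the peak-to-trough size of an 11 h rhythm at its best phase. It keeps at most 10.3% of a 22 h rhythm and 14.7% of a third-harmonic one.

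The deleted gene was at 0 in 11 of the 12 ΔMSN1 libraries and at 0.406 estimated counts in that of 10 h, against 27.7 to 50.6 CPM in the WT. The 8 libraries summed to 2415479 to 9829687 estimated counts, with a mean of 3724053 ± 1043309 (SD, n = 4) in the early phase and 7420354 ± 2714809 in the late phase (two-sided exact permutation test, p = 0.0571, adjusted p = 0.114 over 4 tests). Of 7 conidia markers, 5 passed the CPM minimum, 0 of them at unadjusted p < 0.05, and the summed level of the 7 was 1597 to 2666 CPM early and 1052 to 4990 CPM late. Most of it was the hydrophobin gene *eas*, at 3483 and 4049 CPM at 8 and 10 h and 515.6 to 1606 CPM in the other 6 libraries, and *con-8* (421.0 to 1141 CPM). *con-6* stood at 1.91 to 7.9 CPM, and *con-13* (0 in the 8 libraries) and *acon-3* (0.527 to 2.63 CPM) were at or near 0. Of 7 sexual tissue markers, 2 passed, *asd-1* and *app*, with late minus early log2 differences of −0.91 ± 0.33 and −0.79 ± 0.57 (SE). Of these, *asd-1* was lower late at unadjusted p < 0.05. The summed level of the 7 (1140 to 1904 CPM early, 342.3 to 1148 CPM late) was almost all *asd-1*, with *app* at 4.29 to 34.2 CPM and the pheromone gene *mfa-1* at 0. At 8 h *asd-1* stood at 316.6 CPM, against 802.4 to 1142 CPM in the other late libraries and 1115 to 1891 CPM in the early ones. The part of these cells and of library totals in the results below was not tested.

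The libraries also differed in how long and short genes stood to each other. A long-minus-short index was taken as the median deviation, on log2(CPM + 1), of long genes minus that of short genes. Deviations are from each gene's own mean in its strain. For this the tested genes were put in 4 length classes of like size by the span of the gene, the longest with at least 3280 bp and the shortest with at most 1726 bp. In ΔMSN1 this index was −0.52, 0.12, −0.06 and −0.61 at 2, 4, 14 and 16 h, and 0.38, 0.22, 0.28 and 0.18 at 8, 10, 18 and 20 h. All 4 late libraries lay above all 4 early ones, the 4 h library lay close to the late ones, and the libraries of 2 and 16 h lay far below the rest. The means were −0.27 ± 0.35 early and 0.27 ± 0.09 late (SD, n = 4 each, two-sided exact permutation p = 0.0286, the smallest that 4 against 4 can give, adjusted p = 0.114). In the WT at the same times they were 0.00 ± 0.14 and −0.04 ± 0.07 (exact permutation p = 0.629). Because gene length moves with phase in ΔMSN1, a further fit took each library's length trend out, and its values (corrected values) stand beside those counts, medians and single genes that it moved most.

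**Figure D1:**
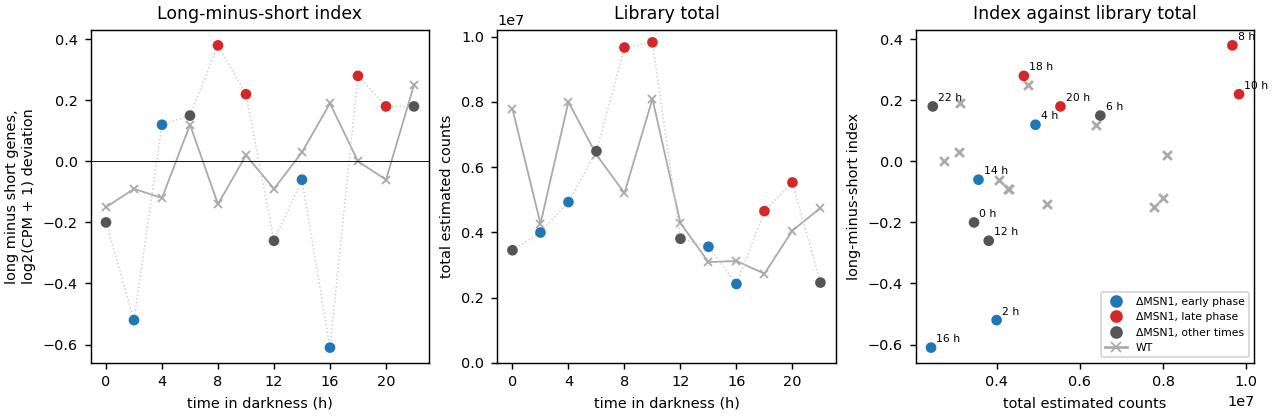
Long-minus-short index (left, log2 scale) and total estimated counts (middle) of each library against hours in darkness, and the first against the second (right). Coloured points are the 12 ΔMSN1 libraries and grey crosses the 12 WT libraries, without replicates at a time. The 4 late phase points of ΔMSN1 lie between 0.18 and 0.38 on the index, above the 4 early phase points (−0.61 to 0.12).

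Long genes were higher in the late phase and short genes were lower. Across the 7315 genes the log2 difference between phases correlated with the log of gene length at r = 0.50 (genes of the same 8 libraries, which are not independent), against r = −0.09 in the WT. From the shortest to the longest class the median log2 difference was −0.25, −0.10, 0.08 and 0.31. In the longest class 553 of 1827 genes were higher late and 16 lower at unadjusted p < 0.05. In the shortest class 45 of 1829 were higher and 511 lower. With the trend taken out, the medians of the classes lay between −0.02 and 0.05. The trend was fitted on these same genes, so class medians near 0 follow from that step.

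**Figure D2:**
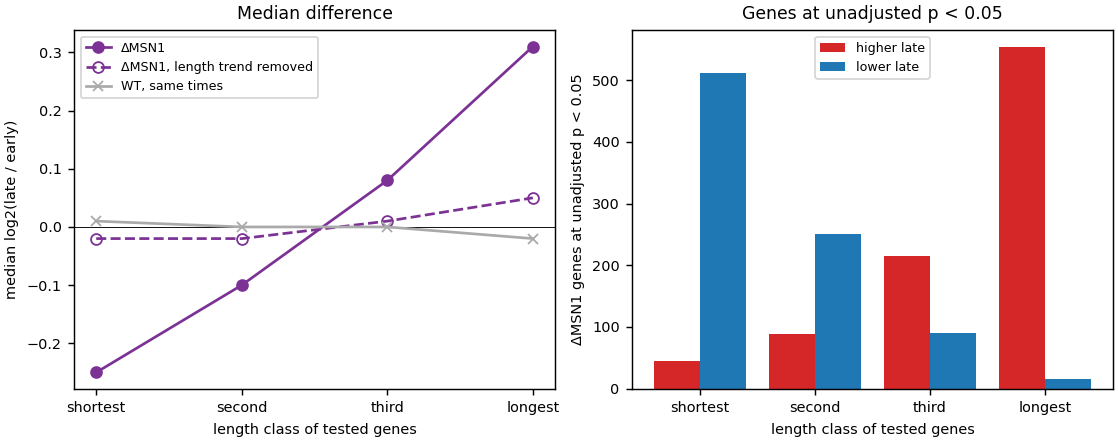
Left, median log2 ratio of late to early phase in each length class of the tested genes, for ΔMSN1, for ΔMSN1 with the length trend taken out, and for the WT at the same times. Right, bars count the ΔMSN1 genes of each class at unadjusted p < 0.05 that were higher (red) or lower (blue) late. The ΔMSN1 medians climb from −0.25 to 0.31 with length and the WT medians lie between −0.02 and 0.01.

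Over the whole transcriptome many genes leaned to one phase, but none passed the threshold in edgeR. At a false discovery rate of 0.1, the rate the study used for rhythms, 0 of 7315 genes were called (percent called 0), with a smallest adjusted p of 0.144. At unadjusted p < 0.05 there were 1770 genes (24.2%), of which 902 (12.3%) were higher and 868 (11.9%) lower late. The early and late libraries did not overlap in 998 genes (13.6%), of which 510 (6.97%) were higher and 488 (6.67%) lower late. Below, genes and lists are therefore described by their values. Counts at unadjusted p < 0.05 and counts without overlap are read against these shares.

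The call rests on the 4 h library and on the tool. Without the 4 h library edgeR called 1967 of 7319 genes (26.9%), 1043 higher (14.3%) and 924 lower (12.6%) late, and without any other of the 8 libraries it called 0. DESeq2 called 708 genes (9.68%), 185 higher (2.53%) and 523 lower (7.15%), and limma-voom called 0. With the length trend taken out edgeR called 0 genes and put 1150 (15.7%) at unadjusted p < 0.05, 539 higher (7.37%) and 611 lower (8.35%). Of these, 404 of the higher and 434 of the lower genes were also among the 902 and 868 without that step, so that 838 genes were in both sets. Below, counts with the length trend taken out are read against these shares of 7.37% and 8.35%.

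Among the 10 named genes with the smallest p whose late libraries all lay above the early ones, a pair encode enzymes of the citric acid cycle. *tca-7* (NCU05425), the E1 subunit of 2-oxoglutarate dehydrogenase, measured 28.2, 44.6, 39.4 and 28.2 CPM at 2, 4, 14 and 16 h. It measured 80.4, 73.2, 56.2 and 56.8 CPM at 8, 10, 18 and 20 h, so that every late library was above every early one, with the highest values in the first cycle of darkness. The fitted difference was 0.91 ± 0.19 on the log2 scale (SE), 1.88-fold (edgeR adjusted p = 0.144), and 0.65 with the length trend taken out. *tca-3* (NCU02366), aconitase, averaged 43 ± 11.5 CPM early and 81.2 ± 16 CPM late (SD, n = 4), a log2 difference of 0.90 ± 0.21 (corrected 0.70). The flavoprotein of succinate dehydrogenase, *tca-12*, averaged 32.5 ± 6.84 and 50.2 ± 9.95 CPM, also without overlap (log2 0.62, corrected 0.41).

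*eif3a* (NCU00040), the largest scaffold subunit of translation initiation factor 3, measured 17.9, 24.5, 20.5 and 14.8 CPM in the early libraries and 30.9, 35.9, 36.8 and 32.1 CPM in the late ones. Every late library was above every early one, and the log2 difference was 0.77 ± 0.15 (1.71-fold, edgeR adjusted p = 0.144), or 0.51 with the length trend taken out. In the WT the same gene averaged 30.6 CPM early and 27.9 CPM late. Its gene span, 4357 bp, puts it in the longest class.

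The gene with the smallest p of this group was NCU05404, an endoglucanase gene, at 123.2, 176.0, 106.3 and 80.0 CPM early and 338.0, 234.2, 269.2 and 280.7 CPM late. Its log2 difference of 1.20 ± 0.22 (2.30-fold) hardly moved when the length trend was taken out (1.15). The cell wall protein genes *acw-9* and *ncw-2* were also among the 10. *acw-9* (NCU06185) averaged 605.3 ± 110.9 CPM early and 1003 ± 67.4 CPM late (log2 0.72, and 0.72 without the length trend). *ncw-2* (NCU01752) averaged 43.3 ± 8.12 and 69.1 ± 5.73 CPM (0.66 and 0.62). These 3 genes are 2436 to 2654 bp long, near the median of 2364 bp. At such lengths the trend taken out is small, so their differences could change little.

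The remaining genes of the 10 were *pp-1*, NCU02913, NCU00955 and NCU01659. *pp-1* (NCU00340), the transcription factor at the end of the MAP kinase cascade of hyphal fusion and sexual development, averaged 18.0 ± 2.79 CPM early and 29.3 ± 4.18 CPM late (log2 0.68, 0.42 without the length trend). NCU02913, annotated as a *rad5* DNA repair gene, was low, at 2.63, 4.79, 4.22 and 3.46 CPM early and 14.8, 5.66, 10.6 and 10.8 CPM late. Its log2 difference of 1.43 ± 0.32 was the widest of the 10, and its 10 h library lay close to the early ones (corrected 1.27). NCU00955, a monooxygenase gene, averaged 52.4 and 84.1 CPM (log2 0.68, corrected 0.48). NCU01659, a dDENN domain gene of 6039 bp, averaged 5.65 and 9.69 CPM, and its log2 difference of 0.76 was 0.39 after correction.

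**Figure D3:**
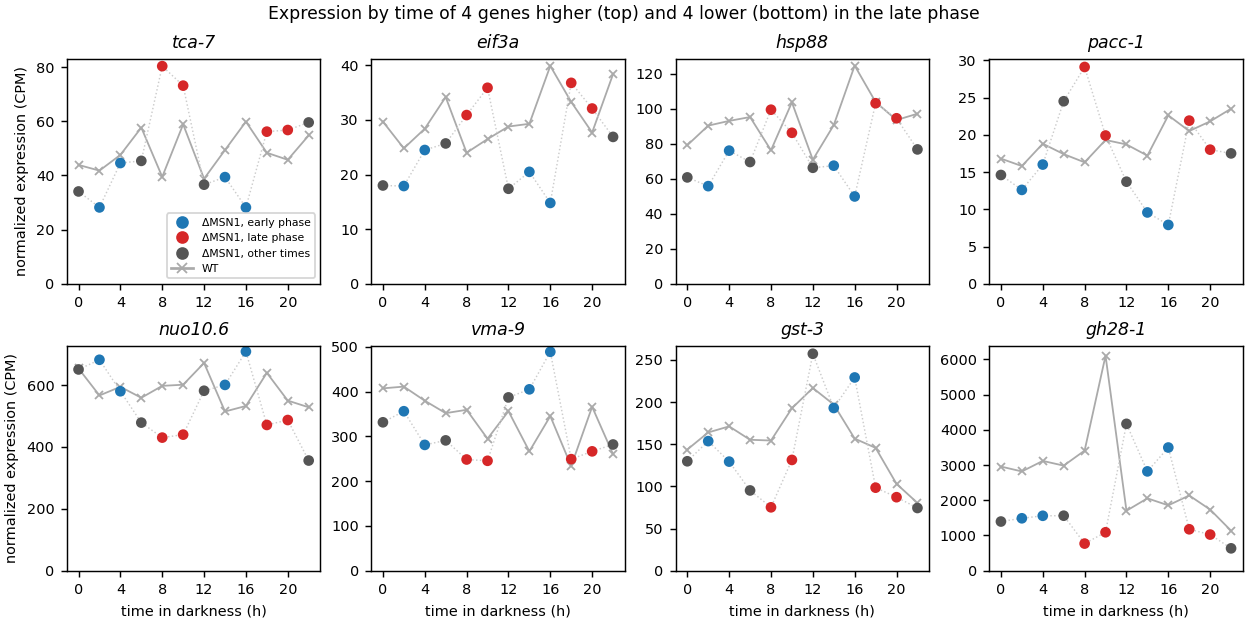
Normalized expression (CPM, linear axis from 0) against hours in darkness for 4 genes higher late (top) and 4 lower late (bottom). Coloured points are single ΔMSN1 libraries by phase, the grey line with crosses is the WT, and there is 1 culture at each point. For *tca-7* the late libraries (56.2 to 80.4 CPM) lie above the early ones (28.2 to 44.6 CPM), and for *nuo10.6* they lie below (430.1 to 486.9 against 579.9 to 708.3 CPM).

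Genes lower in the late phase included small subunits of complex I, the NADH dehydrogenase of the respiratory chain. *nuo10.6* (NCU09002) measured 681.6, 579.9, 600.4 and 708.3 CPM at 2, 4, 14 and 16 h and 430.1, 439.7, 471.0 and 486.9 CPM at 8, 10, 18 and 20 h. The late libraries lay below the early ones in both cycles of darkness, and the log2 difference was −0.50 ± 0.12, or 1.41-fold lower (edgeR adjusted p = 0.144). With the length trend taken out the difference was −0.20. *nuo14.8* (NCU00418) averaged 1247 ± 191.6 CPM early and 857.9 ± 16.2 CPM late (log2 −0.54, and −0.27 without the trend). The genes span 1065 and 1204 bp, in the shortest class.

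A polygalacturonase gene and a small heat shock protein gene were also among the 10 lower late. *gh28-1* (NCU02369), whose product cuts pectin, measured 1488, 1559, 2819 and 3496 CPM early and 770.2, 1091, 1176 and 1026 CPM late. The log2 difference was −1.21 ± 0.28 (2.32-fold lower late, −1.01 with the length trend taken out). On log2(CPM + 1) it was −0.73 in the first cycle of darkness and −1.51 in the second, and the early libraries of the second cycle were the highest. NCU09420, a gene of the small heat shock protein family hsp20, measured 186.4, 166.0, 245.3 and 279.1 CPM early and 43.1, 136.7, 89.9 and 109.6 CPM late (log2 −1.21 ± 0.31, and −0.91 without the trend).

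*dash-5* (NCU10897), named for the DASH complex of the kinetochore, averaged 267.7 ± 104.5 CPM early and 120.4 ± 21.8 CPM late (2.23-fold lower, log2 −1.16, corrected −0.81), with its highest value, 419.9 CPM, at 16 h. *ppi-5* (NCU06433), a peptidyl-prolyl isomerase that helps proteins fold, averaged 186.8 ± 27.4 and 124.4 ± 7.51 CPM (log2 −0.59, corrected −0.29). NCU09283, an acetyltransferase gene, is long (3505 bp) and averaged 48.7 ± 4.75 CPM early and 30.4 ± 3.88 CPM late. Its log2 difference of −0.69 became −0.89 with the length trend taken out. As long genes trend higher late, that step moves a long gene lower late further from 0. NCU04195, a gene of the purine-cytosine permeases, behaved likewise (−0.71 and −0.81). NCU02338, a secreted protein gene, and NCU02967, an ankyrin repeat gene, were the last of the 10, at 95.7 against 62.1 CPM (log2 −0.63, corrected −0.54) and 96.3 against 52.5 CPM (−0.87, corrected −0.62).

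The gene lists of metabolism and protein folding that stood higher late were those of the citric acid cycle and of the heat shock proteins. Of 24 citric acid cycle genes, 10 (41.7%) were higher and 0 lower at unadjusted p < 0.05, against 12.3% and 11.9% of all tested genes. In 5 the late libraries lay above the early ones without overlap, against 6.97% of all tested genes. The median log2 difference was 0.41, against 0.02 over all tested genes. With the length trend taken out the median was 0.31 and 9 were higher, 7 of them among the 10. By time the median of the list was lowest at 16 h (−0.41) and 2 h (−0.30) and highest at 8 h (0.46), and the 4 h library (0.18) lay among the late ones. In the WT the median difference of these genes was 0.05.

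Of 13 heat shock proteins and chaperones, 7 (53.8%) were higher and 1 (7.69%) lower (median 0.41, and 0.31 with the length trend taken out, when 6 were higher and 1 lower). Their log2 differences ran from −0.68 to 0.76, and 4 of the 13 were negative. The list, made by symbol, does not hold NCU09420 of the hsp20 family, which was lower late (log2 −1.21). *hsp88* (NCU05269), an Hsp110 family chaperone, measured 55.8, 76.1, 67.5 and 49.9 CPM early and 99.5, 86.3, 103.2 and 94.6 CPM late, without overlap (log2 0.61 ± 0.15, corrected 0.40). *hsp70-5* averaged 48.1 ± 11.2 and 79.4 ± 20.4 CPM (0.71). *hsp70-3* averaged 69.7 ± 12.6 and 118.5 ± 30.6 CPM (0.76), with the 10 h library, 81.4 CPM, inside the early range. The mitochondrial chaperonin *hsp60* averaged 33.7 and 52.0 CPM (0.60), and *hsp70-6* 19.8 and 23 CPM (0.18 ± 0.21, corrected 0.02). The regulator of these genes, the heat shock factor gene *hsf-1* (NCU08512), measured 3.42, 5.9, 5.06 and 3.46 CPM early and 9.44, 8.1, 7.3 and 6.86 CPM late (0.79 ± 0.20, and 0.48 without the length trend).

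Of 16 translation factors, 7 (43.8%) were higher and 1 (6.25%) lower, with a median of 0.31 (0.21 with the length trend taken out, when 5 were higher and 1 lower). *eif5B*, whose product name is that of a mitochondrial translation initiation factor, averaged 29.9 ± 4.9 CPM early and 45.1 ± 4.78 CPM late without overlap (log2 0.58, corrected 0.32). The abundant elongation factor gene *tef-1* averaged 2398 ± 562.3 and 3546 ± 417.0 CPM, with the 4 h library (3081 CPM) above that of 10 h (3029 CPM). *eif3e* averaged 47.8 and 65.0 CPM, and *eif6* went the other way, at 241.4 and 197.6 CPM (log2 −0.29 ± 0.16, corrected −0.19). Of 12 cytosolic ribosomal protein genes, 0 were higher and 1 lower, and 2 were higher and 0 lower with the length trend taken out. The lower gene, *crp-75*, at 223.4 and 151.2 CPM (log2 −0.57, corrected −0.23), carries the product name of an snRNP and snoRNP protein.

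Regulatory genes are long, and most of those listed were on the higher side. Of 74 transcription factors, 27 (36.5%) were higher and 2 (2.7%) lower late (median 0.33, median gene span 3539 bp). With the length trend taken out the median was 0.15, with 10 higher and 2 lower. *pacc-1* (NCU00090), the regulator of the response to ambient pH, measured 12.6, 16.0, 9.57 and 7.9 CPM early and 29.1, 19.9, 21.9 and 18.0 CPM late. It was lowest at 14 and 16 h and highest at 8 h, and its log2 difference of 0.90 ± 0.22 was 0.76 with the trend taken out. In the longest class, 19 of 44 transcription factors were higher, with a median of 0.42 against 0.31 for all genes of that class.

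Of 102 protein kinases, 32 (31.4%) were higher and 4 (3.92%) lower (median 0.28). The corrected median was 0.05, and 6 were then higher and 8 lower, near the shares of all tested genes (7.37% and 8.35%). The length classes held 2, 14, 24 and 62 kinases from short to long. Their medians were −0.01, −0.12, 0.06 and 0.40, against −0.25, −0.10, 0.08 and 0.31 for all genes, the first resting on 2 kinases. *pkc*, protein kinase C of the cell wall integrity pathway, averaged 32.4 ± 7.56 and 48.5 ± 4.94 CPM (log2 0.56, corrected 0.26). *stk-12*, of 7752 bp, averaged 4.04 ± 0.127 and 5.93 ± 0.664 CPM, and its log2 difference of 0.56 was 0.11 without the trend. *cot-5*, which the list caught by its symbol although its synonym *alg2* is the name of a glycosyltransferase gene, averaged 77.7 ± 7.29 CPM early and 59 ± 2.69 CPM late (−0.40, and −0.24 without the trend).

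Of 62 chromatin modifiers, 18 (29.0%) were higher and 3 (4.84%) lower, against 12.3% and 11.9% of all tested genes. Groups did not overlap in 17 and 3, against 6.97% and 6.67% of all tested genes. The median of the list, 0.28, was 0.10 with the length trend taken out, when 5 were higher and 2 lower. *rcm-1*, which encodes a partner of the RCO-1 corepressor, averaged 12.6 ± 2.22 and 19.7 ± 2.54 CPM (log2 0.62, corrected 0.36), and NCU05972 averaged 4.57 ± 1.62 and 8.08 ± 1.06 CPM (0.75, corrected 0.56). The study's tables give NCU05972 the symbol *nst-6* and the product name of a sporulation protein, while the reference table gives that symbol to the locus NCU05973. The SET domain gene *set-6* was lower late, at 13.1 ± 1.68 and 9.32 ± 1.53 CPM. Of 9 histone genes, 1 was higher and 0 lower, and 2 were higher and 2 lower with the length trend taken out. The one higher in both was the linker histone gene *hH1*, which averaged 391.2 and 552.4 CPM, while *hH2B* averaged 1815 and 2176 CPM (log2 0.26, corrected 0.41) and *hH4v* 109.5 and 88.4 CPM.

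Of 47 genes of polarity and hyphal fusion, 11 (23.4%) were higher and 1 (2.13%) lower (median 0.23). The corrected median was 0.07, and 4 were then higher and 2 lower, where 7.37% and 8.35% of all tested genes were. *so*, needed for the fusion of germlings and hyphae, measured 10.8, 12.9, 9.57 and 8.4 CPM early and 23.5, 14, 19 and 16.3 CPM late (log2 0.77, corrected 0.45). The formin gene *bni1* averaged 5.94 ± 0.861 and 9.08 ± 0.948 CPM, and its log2 difference of 0.59 was 0.16 after correction. The septation gene *bud4* averaged 5.10 ± 0.909 and 8.48 ± 1.42 CPM (0.70, corrected 0.34). In these 3 genes every late library was above every early one, although in *bud4* the closest pair stood at 6.45 CPM (4 h) and 6.54 CPM (20 h).

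**Figure D4:**
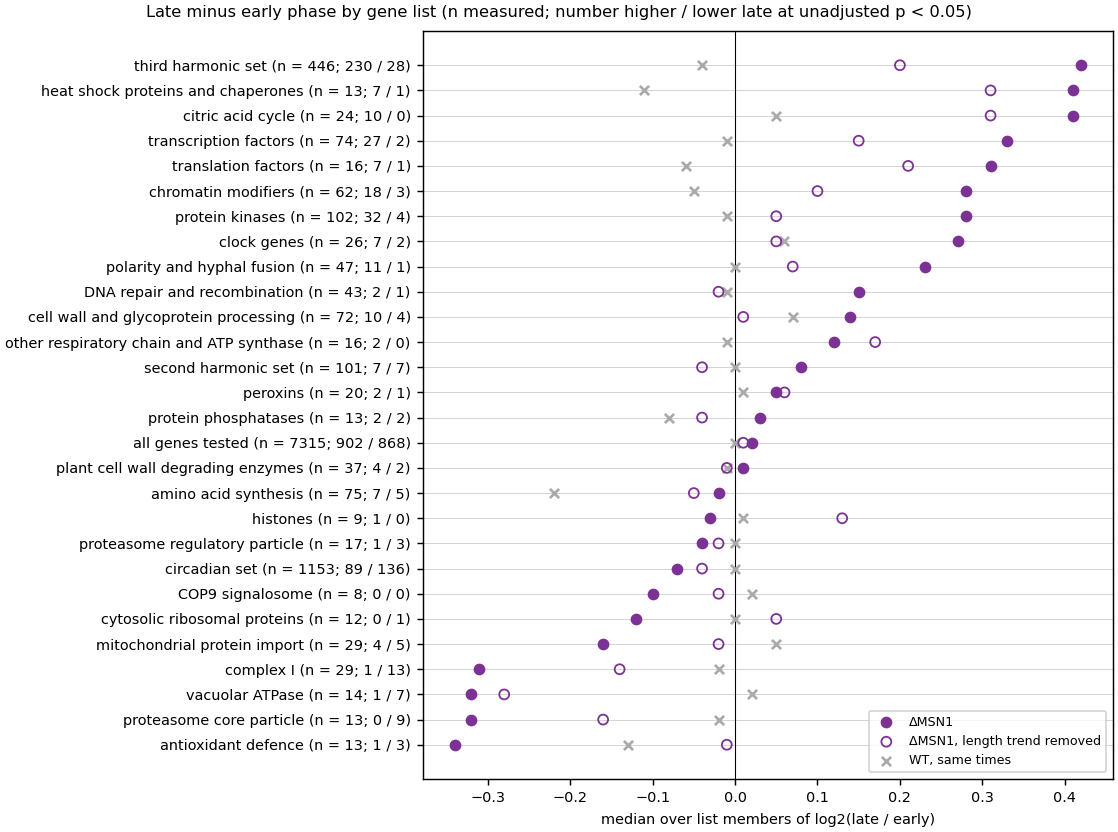
Median log2 ratio of late to early phase over the measured members of each gene list with 8 or more of them, which leaves out the conidia and sexual tissue markers, for ΔMSN1 (filled), ΔMSN1 with the length trend taken out (open) and the WT at the same times (crosses); numbers beside each name give the members measured and those higher and lower late at unadjusted p < 0.05 in ΔMSN1. Of the lists shown, the third harmonic set has the highest ΔMSN1 median (0.42) and antioxidant defence the lowest (−0.34), and the WT medians lie between −0.22 and 0.07.

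On the lower side stood some lists of subunits of large complexes. Of 29 complex I genes, 13 (44.8%) were lower and 1 (3.45%) higher late, against 11.9% and 12.3% of all tested genes. Groups did not overlap in 10 and 1, against 6.67% and 6.97% of all tested genes. The median of complex I was −0.31 (−0.14 with the length trend taken out, when 7 were lower and 1 higher). The median gene span of the list is 1611 bp. In the shortest class the 19 complex I genes had a median of −0.39, against −0.25 for all genes of that class. *nuo9.8* averaged 1017 ± 190.8 and 692.1 ± 37.8 CPM (log2 −0.56, corrected −0.24). Of 16 genes of the other respiratory complexes and ATP synthase, 2 were higher and 0 lower (median 0.12). They were *atp-2*, the beta subunit of ATP synthase, at 343.2 ± 54.6 and 444.0 ± 25.5 CPM (log2 0.37, corrected 0.21), and *com*, at 5.84 and 8.13 CPM (0.47, corrected 0.22), whose synonym *gpip-3* is that of a gene of GPI anchor synthesis. After correction 2 genes of this list were higher, neither of them *atp-2* or *com*. The external dehydrogenase gene *nde-2* averaged 28.3 and 38 CPM (log2 0.39 ± 0.18).

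All 13 genes of the proteasome core particle, which degrades proteins, had a negative log2 difference. Of them, 9 (69.2%) were at unadjusted p < 0.05 and 5 did not overlap. Over all tested genes, 11.9% and 6.67% were so on the lower side. The median of the core particle was −0.32, and −0.16 with the length trend taken out, when 3 were lower and 0 higher. *pca-1* measured 493.1, 386.8, 430.4 and 564.1 CPM early and 275.5, 318.4, 369.8 and 373.2 CPM late, with the 4 h library close to the late range. *pca-6* averaged 432.2 ± 53.4 and 324.2 ± 37.2 CPM (log2 −0.42, corrected −0.24), and *pca-4* 331.5 ± 53.1 and 256.6 ± 26.5 CPM (−0.37, corrected −0.20). The 17 genes listed for the regulatory particle had a median of −0.04, with 3 lower and 1 higher. *rpn-12* and *rpn-10* were lower late (log2 −0.38 and −0.36, without overlap, and −0.21 and −0.14 after correction). The one that was higher, *rpn-4* (25.7 ± 1.45 and 35.9 ± 5.31 CPM), shares its name with a transcriptional activator of proteasome genes in budding yeast, not a subunit. Of 8 genes of the COP9 signalosome 0 were higher and 0 lower, with log2 differences of −0.27 in *csn-2*, −0.27 in *csn-8* and −0.16 in *csn-1*.

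Of 14 genes of the vacuolar ATPase, the proton pump of the vacuole, 7 (50.0%, against 6.67% of all tested genes) were lower without overlap and 1 was higher. Their median of −0.32 was −0.28 with the length trend taken out, when 7 were lower and 0 higher, 6 of the lower ones being the same genes. *vma-9* measured 356.2, 281.0, 405.1 and 489.0 CPM early and 248.4, 245.5, 249.2 and 266.6 CPM late (log2 −0.61, corrected −0.30). The late libraries lay close to each other and the early ones spread more widely. *vma-10* averaged 244.7 ± 30.1 and 178.7 ± 10.7 CPM and *vma-16* 257.3 ± 46.2 and 183.3 ± 6.04 CPM. By time, the median of the list stood at 0.47 at 16 h, at 0.13 at 2 and 14 h and at −0.03 at 4 h, against −0.22 to −0.06 in the late libraries.

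Mitochondrial import genes were mixed, with 4 of 29 higher (13.8%) and 5 lower (17.2%) late (median −0.16), against 12.3% and 11.9% of all tested genes. The corrected median was −0.02, and 5 were then higher and 1 lower. *tom70*, the outer membrane receptor for incoming proteins, measured 17.1, 26.5, 17.7 and 15.3 CPM early and 38.7, 28.4, 34.3 and 30.3 CPM late (log2 0.75 ± 0.18, and 0.61 without the trend). *tim14* and *tim21*, subunits of the inner membrane import machinery, were lower, at 148.5 ± 13.3 against 112.5 ± 13 CPM (log2 −0.40, corrected −0.22) and at 197.9 ± 55.1 against 130.9 ± 14.4 CPM (−0.60, corrected −0.32). Of 13 antioxidant genes, 3 (23.1%) were lower and 1 (7.69%) higher. Their median of −0.34 was −0.01 with the length trend taken out, although 4 were then lower. The glutathione transferase genes *gst-3* (176.3 ± 43.9 and 98.1 ± 24.2 CPM, log2 −0.85, corrected −0.55) and *gst-2* (307.7 ± 37.9 and 220.6 ± 20.9 CPM) and the superoxide dismutase gene *sod-2* (243.7 ± 36.6 and 174.6 ± 23.6 CPM) were the lower ones. *pdx-1*, of vitamin B6 synthesis, measured 1326, 592.1, 742.2 and 1239 CPM early and 432.7, 713.5, 544.3 and 617.8 CPM late, with the 4 h library inside the late range.

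**Figure D5:**
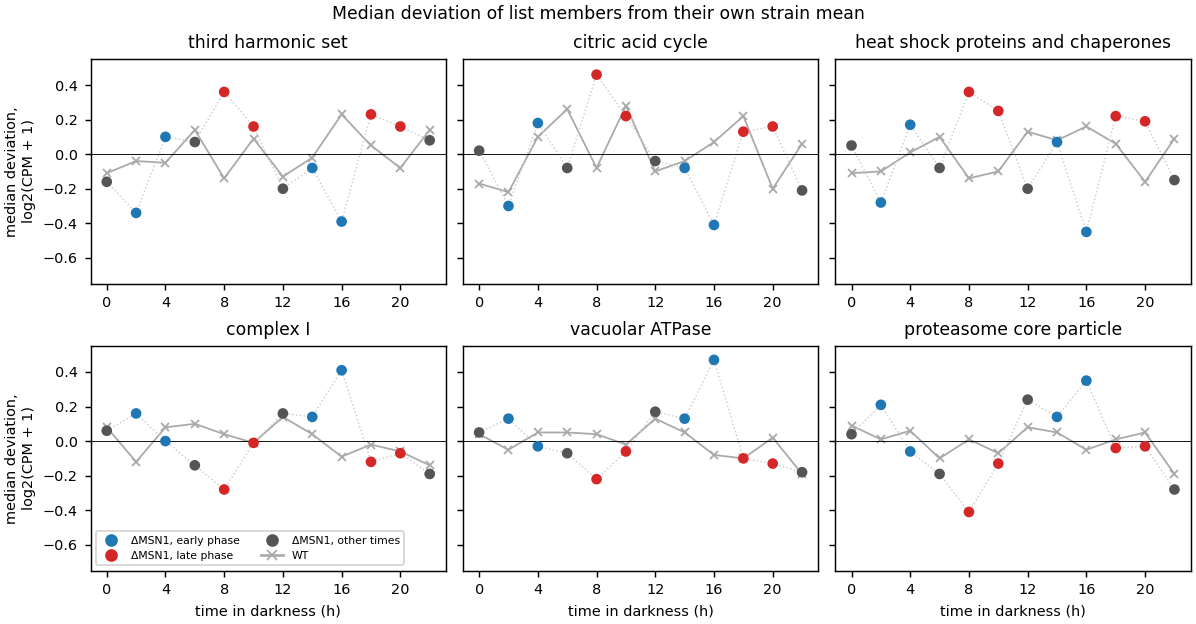
Median over list members of the deviation of log2(CPM + 1) from each gene's own mean in its strain, against hours in darkness, for 3 lists higher late (top) and 3 lower late (bottom). Coloured points are ΔMSN1 libraries by phase and grey crosses the WT, with 1 culture at each time. In the third harmonic set the late libraries lie between 0.16 and 0.36 and the early ones at −0.34, 0.10, −0.08 and −0.39. In the 6 panels the 16 h library is the lowest of the 12 at the top and the highest at the bottom.

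Other lists leaned little. Plant cell wall degrading enzymes (37 genes, 4 higher and 2 lower, median 0.01) included *gh2-2*, a beta-galactosidase gene (4.51 and 7.76 CPM), and *gh7-4* (5.70 and 7.69 CPM). This list and that of DNA repair, made by symbol, do not hold the endoglucanase gene NCU05404 and the *rad5* gene NCU02913. Both were higher late (log2 1.20 and 1.43). Cell wall and glycoprotein genes numbered 72 (10 higher and 4 lower, median 0.14), among them the alpha-1,3-glucan synthase gene *gh13-10* (15.2 and 22.9 CPM), whose log2 difference of 0.56 was 0.06 with the length trend taken out. Of 75 amino acid synthesis genes 7 were higher and 5 lower (median −0.02), with *his-7* at 174.9 and 112.7 CPM, *cys-12* at 23.9 and 18.0 CPM and *cys-16* at 12.3 and 18.6 CPM. With the length trend taken out 2 of the 75 were higher and 7 lower, of which 1 and 5 were among the 7 and 5. Of 43 DNA repair genes 2 were higher (*uvs-5* and *msh3*, log2 0.42 and 0.67, corrected 0.26 and 0.50) and 1 was lower (*rpa-3*, −0.60, corrected −0.30). Of 20 peroxins 2 were higher (*pex8* and *pex6*, 0.50 and 0.45, corrected 0.32 and 0.14) and 1 lower (*pex11*, −0.45, corrected −0.22). None of these 3 repair genes and 3 peroxin genes stood at unadjusted p < 0.05 with the length trend taken out. Of 13 genes listed as protein phosphatases 2 were higher and 2 lower. Among the higher was *pp-1*, the transcription factor gene described above, which the list caught by its symbol. The lower were *cnb-1*, the regulatory subunit of calcineurin (201.5 ± 28.4 and 152.5 ± 6.39 CPM), and *ppm-3* (148.9 and 108.8 CPM), whose product name is that of a ribose phosphate isomerase.

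Of 26 clock genes, 7 (26.9%) were higher and 2 (7.69%) lower late (median 0.27, and 0.05 with the length trend taken out). *frq* itself measured 4.21, 4.05, 14.1 and 13.3 CPM early and 5.5, 8.68, 7.66 and 6.38 CPM late. Its early libraries were low in the first cycle of darkness and high in the second. On log2(CPM + 1) the late minus early difference was 0.63 in the first cycle and −0.88 in the second, and the fitted one −0.25 ± 0.39 (corrected −0.56). *ccg-1*, a clock-controlled gene, had the same shape, at 15053 and 13014 CPM at 2 and 4 h, 35843 and 35893 CPM at 14 and 16 h and 18048 to 22099 CPM in the late libraries (log2 −0.31, corrected 0.05). *wc-1* averaged 4.96 and 7.04 CPM and *wc-2* 29.2 and 32.3 CPM, with log2 differences of 0.44 ± 0.23 and 0.13 ± 0.16 that were 0.06 and −0.06 after correction. *frh*, the gene of the FRQ partner, measured 4.21, 6.08, 5.91 and 4.45 CPM early and 7.3, 6.93, 8.03 and 7.34 CPM late, without overlap (0.48 ± 0.16, and 0.22 without the length trend). The repressor gene *csp-1* averaged 49.7 and 73.5 CPM, with a log2(CPM + 1) difference of 0.97 in the first cycle and 0.14 in the second. *sub-1* averaged 14.3 ± 3.83 and 23.8 ± 5.3 CPM, and *ccg-9* 5.61 ± 1.59 and 11.1 ± 4.36 CPM.

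The third-harmonic genes that the study had picked in an earlier WT series, not among these libraries, leaned to the late phase. The study had already reported an 11 h period for these genes in ΔMSN1. It also split them into groups of opposite phase, which it reported to hold in ΔMSN1. These groups are pooled here. As the phases were chosen with earlier results of these data known, the counts are not an independent test of these genes. Of 446 measured, 230 (51.6%) were higher and 28 (6.28%) lower at unadjusted p < 0.05, against 12.3% and 11.9% of all tested genes. The difference was positive in 385 and negative in 61. The median was 0.42. They are long genes, with a median span of 3644 bp where that of the tested genes is 2364 bp, and 276 of them lie in the longest class. With the length trend taken out the median was 0.20. Then 88 members were higher and 13 lower, where 7.37% and 8.35% of all tested genes were. Of these members, 83 and 9 were among the 230 and 28. Within the length classes their medians were −0.30, 0.16, 0.39 and 0.48 from short to long, against −0.25, −0.10, 0.08 and 0.31 for all genes. By median, the members of the shortest class stood on the lower side with the rest of that class. Those of the other classes stood above the rest of theirs. Whether the members lower late belong to the same one of the study's groups was not looked at.

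Single members showed the range. Among transcription factors of this set, *tah-3* averaged 81.9 ± 18.7 and 126.1 ± 13.3 CPM and *col-27* 4.33 ± 0.982 and 6.61 ± 0.521 CPM, both without overlap (log2 0.61 and 0.58, corrected 0.32 and 0.37). *ff-7* (8.57 and 12.9 CPM, log2 0.56 ± 0.19, corrected 0.24), *ada-3* (7.67 and 10.8 CPM, 0.47 ± 0.20, corrected 0.23) and *asl-1* (29.2 and 35.3 CPM, 0.27 ± 0.16, corrected 0.07) overlapped. The kinase genes *prk-8*, *prk-4* and *stk-4* had log2 differences of 0.57, 0.45 and 0.38, which were 0.26, 0.14 and 0.07 after correction. The histone deacetylase gene *hda-4* had one of 0.61 (corrected 0.32). *rpo-9*, the largest subunit of RNA polymerase II, averaged 12.4 ± 3.74 and 20.1 ± 0.992 CPM without overlap (log2 0.64, corrected 0.25), and *rpo-6* 15.5 ± 5.0 and 21.5 ± 1.92 CPM (0.43, corrected 0.12). *met-8*, methionine synthase, averaged 91.0 ± 19.4 and 122.2 ± 7.14 CPM (0.42, corrected 0.21). These genes are 3583 to 6686 bp long. In each of these genes the lowest of the 8 libraries was that of 2 h or of 16 h.

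The study's second-harmonic genes, those with an 11 h period in its earlier WT series, did not lean to either phase. Of 101 measured, 7 were higher and 7 lower (6.93% each), with a median of 0.08 (corrected −0.04). After correction 4 were higher and 6 lower, of which 0 and 6 were among the 7 and 7. NCU04446, a hypothetical protein gene, had the smallest p of the set and was lower late, at 14.0 ± 2.26 and 8.31 ± 1.29 CPM. Of 1153 circadian genes, 89 (7.72%) were higher and 136 (11.8%) lower, with a median of −0.07. NCU05351 of that set measured 11.6, 15.8, 10.1 and 16.3 CPM early and 71.6, 37.5, 29.9 and 30.3 CPM late. Its difference of 1.67 ± 0.31 (3.18-fold) was 1.93 with the length trend taken out. NCU11411, of the same set, averaged 29.6 ± 9.16 and 13.1 ± 1.86 CPM (−1.16 ± 0.22).

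Differences were also taken within each cycle of darkness. The first compares the libraries of 8 and 10 h with those of 2 and 4 h, and the second those of 18 and 20 h with 14 and 16 h, so that they share no library. Of 7315 genes, 5344 (73.1%) had the same sign in both cycles on log2(CPM + 1), with r = 0.52 across genes, which share the libraries of each cycle. Of the 446 third-harmonic genes 415 (93.0%) did, 366 higher in both and 49 lower in both. After correction, a step added after the data had been seen, 65.6% of all genes (r = 0.39) and 74.0% of the third-harmonic genes (279 higher and 51 lower in both) had the same sign. In the WT 47.6% of 7216 genes had the same sign (r = −0.05), and 48.4% with the trend taken out. At the times left out of the comparison, the third-harmonic median was −0.16 at 0 h, −0.20 at 12 h, 0.07 at 6 h and 0.08 at 22 h. The libraries of 0 and 22 h share a phase of the 11 h cycle and lay on opposite sides of 0.

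In the WT at the same times few genes leaned to a phase. Of 7216 genes edgeR called 1 (percent called 0.0139) and put 327 (4.53%) at unadjusted p < 0.05, of which 212 (2.94%) were higher and 115 (1.59%) lower late. Groups did not overlap in 194 genes (2.69%), 111 (1.54%) higher and 83 (1.15%) lower. The called gene, *gh61-12* (NCU02344), a cellulose binding domain gene, averaged 102.1 ± 6.35 CPM early and 51.6 ± 6.76 CPM late (log2 −0.98, adjusted p = 0.0685). In ΔMSN1 it averaged 28.5 ± 6.3 and 21.2 ± 4.49 CPM. The third-harmonic genes had a WT median of −0.04, with 5 of 445 higher and 7 lower.

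The difference of the phase difference between strains was tested in 1 model of 16 libraries. Of 7300 genes edgeR called 1 (percent called 0.0137), NCU10687, a hypothetical protein gene of the third-harmonic set. It measured 23.7, 28.7, 27 and 25.7 CPM early and 44.1, 38.6, 42.7 and 35.9 CPM late in ΔMSN1, and 38.6, 55.2, 55.9 and 53.9 CPM early and 29.4, 35, 36 and 39.1 CPM late in the WT. The groups did not overlap in ΔMSN1, where the late libraries were higher, and in the WT the late libraries were lower except that 39.1 CPM at 20 h was above 38.6 CPM at 2 h. The strain difference was 1.16 ± 0.19 (adjusted p = 0.0794). At unadjusted p < 0.05 there were 896 genes (12.3%), 477 (6.53%) with a higher and 419 (5.74%) with a lower late minus early difference in ΔMSN1, and of 446 third-harmonic genes 167 and 21 were among them. The call was lost in limma-voom and with the length trend taken out (0 genes called in each), and on leaving out any library other than that of WT at 2 or 20 h or ΔMSN1 at 20 h.

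The next named genes by p for the strain difference did not pass (adjusted p = 0.364 each). They were *ncw-2* (1.22 ± 0.27), NCU09496, a C2H2 transcription factor gene (0.77 ± 0.17), *gh13-10* (0.86 ± 0.20), *nuo10.6* (−0.61 ± 0.14) and *bni1* (0.84 ± 0.20). In *ncw-2* the WT averaged 86.3 ± 27.2 CPM early and 59.1 ± 11.3 CPM late, the reverse of ΔMSN1, with 126.1 CPM at 16 h. In *nuo10.6* the WT averaged 551.8 ± 35.5 and 596.9 ± 36.8 CPM.

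Across the 12 ΔMSN1 libraries the long-minus-short index went with the log of the library total (Pearson r = 0.63, permutation p = 0.0218, adjusted p = 0.066 over 4 values, Spearman rho = 0.63, permutation p = 0.033). Without the libraries of 8 and 10 h, the farthest from the median total, r was 0.51. In the 12 WT libraries r was −0.31. The relation had exceptions, as the library of 22 h was among the shallowest (2458212 estimated counts) and stood at 0.18. Its part in the phase differences was not tested.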

How the data were processed

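The authors deposited estimated counts per gene for 24 libraries, made with kallisto 0.43.1 according to the submitters' notes. The genome build, the step to genes and any scaling are not given in the sources used here. In 597 genes the smallest value above 0 fell with gene length (r = −0.76 on ln scales, across genes), so CPM may not stand for reads. All 24 columns were mapped by title and 0 were left unmapped.

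Estimated counts were rounded and tested with edgeR 4.0.16 (quasi-likelihood F test, TMM, Benjamini-Hochberg adjustment) in R 4.3.3, for 8 libraries of 1 strain or 16 of both. CPM printed are TMM-scaled over 24 libraries, with factors within 1.31% of those of the fit. Differences within 1 cycle of darkness and levels of lists use log2(CPM + 1). Alternatives used DESeq2 1.42.0, limma-voom (limma 3.58.1), other minimums, scalings and designs, a length correction, values times length, and leaving out each library. The fits were run on simulated counts, drawn without a length trend or other shift shared by the genes of a library. That run therefore cannot show how the fits handle such shifts. Tables and figures used matplotlib 3.10.9, scipy 1.17.1, pandas 2.3.3 and numpy 2.4.6 under Python 3.11.15.

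The phases, gene lists and tests were chosen with earlier results of these data known. The 26 lists rest on gene symbols and were written after the files had been seen, since the reference table (assembly NC12, 9729 of 9730 genes matched) gives no product names, by which lists had been planned. Symbols were found for 1386 genes, some in the study's supplementary tables, the source of product names and of the 3 rhythm sets. Gene length is the span from start to end in the reference table. Named genes are, per direction, the 10 with a name and the smallest p whose groups do not overlap (by unadjusted p, as none passed the threshold), 2 to 4 members of each list by smallest p, the 5 of smallest p for the strain difference, the study's own third-harmonic genes, clock genes and a few 11 h genes of ΔMSN1. Of these, *ste-7* was not matched to a locus and NCU07122 was below 2 CPM.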

Additional observations from a re-analysis of the deposited data

Results flagged for a closer look

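In 238 groups of 4 libraries, 10 had 1 library far from the other 3 by Dixon's criterion, which flags about 5% of groups by chance. The 8 h library gave 4 of them: NCU04195 at 31.7 CPM (48.6 to 50.2 CPM in the other late libraries), *sod-2* at 139.7 CPM, *gh2-2* at 11.6 CPM and *hsp60* at 65.2 CPM. *tim14* stood apart at 168.4 CPM at 16 h and at 93.0 CPM at 18 h. *pex8* stood at 8.39 CPM at 18 h, and *rpo-6* at 18.6 CPM at 10 h. The 4 h library was the highest early one for *pex6* (6.08 CPM) and *bud4* (6.45 CPM).

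NCU10687 differed between strains in its late minus early difference, by 1.16 on the log2 scale (edgeR adjusted p = 0.0794), higher late in 4 of 4 ΔMSN1 libraries.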

How the results depend on the processing

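The count of 0 called genes in ΔMSN1 became 708 with DESeq2 (185 higher, 523 lower), 4 with terms for a 22 h rhythm and 1967 without the 4 h library, and ranged from 0 to 1967 over the left-out libraries. It stayed 0 under limma-voom, DESeq2 size factors, a block for the 11 h cycle of darkness, both other CPM minimums, values times length, the length correction, 12 libraries in 3 groups and a threshold of 0.05. The 1770 genes at unadjusted p < 0.05 became 1150 with the length trend taken out, and 989 to 2625 over the left-out libraries (989 without 2 h, 992 without 16 h, 2625 without 4 h). DESeq2 put 1513 genes there, 536 higher and 977 lower, against 902 and 868 in edgeR. The WT call was lost (0 genes) with 12 libraries in 3 groups, 22 h terms, that block, no CPM minimum, a threshold of 0.05 and without any of the 8 libraries, and 22 h terms gave 644 WT genes at unadjusted p < 0.05 against 327. The strain call became 40 with DESeq2, 2 with 22 h terms or no CPM minimum, and 0 with limma-voom, the length correction or a threshold of 0.05. It ranged from 0 to 1 over the left-out libraries and was kept only without WT 2 h, WT 20 h or ΔMSN1 20 h. The 896 genes at unadjusted p < 0.05 became 463 with the length correction and 513 to 1619 over the left-out libraries (513 without ΔMSN1 2 h, 530 without 16 h, 1619 without 4 h, 561 without WT 16 h). Medians above 0 were found for 16 of 28 lists, and for 15 or 16 under the 3 alternatives run.

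Of 115 named genes under 18 alternatives, 3 changed direction: *wc-2* (−0.06) and *ccg-1* (0.05) with the length trend taken out, and *frq* without the 14 h library (−0.55 to 0.17 over the left-out libraries, 0.17 without 14 h). The cause of these shifts was not tested. The labels carry no replicate numbers, so libraries were not paired by number, and the block for the cycle of darkness, in which each side has 2 libraries a cycle, put 1767 genes at unadjusted p < 0.05. Each time has 1 culture, so harvest time and culture cannot be told apart.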
